A study of Homo sapiens with 32 samples.

Results

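The 8 long non-coding RNAs (lncRNAs) described here are MALAT1, NEAT1, KCNQ1OT1, NORAD, TUG1, OIP5-AS1, DANCR and CYTOR. They were chosen by name, as widely studied lncRNAs of the nucleus or the cytoplasm, and each name matched 1 of the 62703 gene identifiers of the deposited count tables. All 8 passed the filter on low counts in every fit. The cells were HEK293T, a line derived from human embryonic kidney that carries the SV40 large T antigen. IGF2BP1, IGF2BP2 or IGF2BP3 was knocked out with Cas9 and 3 guide RNAs to each gene, delivered on plasmids with GFP that do not integrate, and single GFP-positive cells were sorted and grown, so that each knockout is 1 clone. The control, WT (CRISPRCas9 non-targeting control), received a guide with no human target in parallel, and the labels do not say whether it is a clone or a pool. The loss of the targeted gene and other differences of a clone can therefore not be told apart in any comparison. A level or change without IGF2BP1, IGF2BP2 or IGF2BP3 is one in that knockout. No group was treated further. Poly(A)-selected, stranded libraries of paired reads were made from whole-cell (total), nuclear and cytoplasmic RNA. Each RNA kind had 4 control libraries, in batches 1 to 4 of the labels. The IGF2BP1 knockout had 2 libraries per RNA kind, in batches 1 and 2, and the IGF2BP2 and IGF2BP3 knockouts had 2 each, in batches 3 and 4. Replicates 3 and 4 of the cytoplasmic IGF2BP3 knockout form batch 5, which holds no control and no nuclear library. Nothing in the labels says that replicates were separate cultures, so the p-values measure the spread between libraries, which may be technical.

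The IGF2BP proteins bind messenger RNAs, prefer sites that carry N6-methyladenosine and are known for protecting their targets from decay. MALAT1 lies in nuclear speckles and NEAT1 is the scaffold of paraspeckles, nuclear bodies built from NEAT1 and a set of RNA-binding proteins. KCNQ1OT1 is transcribed antisense within KCNQ1 from the paternal chromosome and silences neighbouring genes there. TUG1 is found in both compartments and has been tied to Polycomb-linked repression. NORAD is an abundant cytoplasmic RNA that holds Pumilio proteins, among them PUM2, OIP5-AS1 (Cyrano) binds the RNA-binding protein ELAVL1 and directs the decay of miR-7, DANCR is the host of small nucleolar RNA SNORA26 and keeps progenitor cells undifferentiated, and CYTOR is a mostly cytoplasmic RNA tied to cell migration.

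The genes lie on GRCh38 (GENCODE 29) as follows. NEAT1 (chr11:65422774-65445540, plus strand) and MALAT1 (chr11:65497688-65506516, plus strand) are lincRNAs 52148 bp apart. KCNQ1OT1 (chr11:2608328-2699994, minus strand) is an antisense gene within KCNQ1. NORAD is at chr20:36045622-36050960 on the minus strand and TUG1 at chr22:30969245-30979395 on the plus strand. OIP5-AS1 (chr15:41283990-41309737, plus strand) overlaps the end of OIP5 on the other strand, DANCR is at chr4:52712404-52720351 (plus strand), and CYTOR, with 38 annotated transcripts, at chr2:87454781-87636740 (plus strand). CYTOR shared 16% of its exonic 50-mers with the near-copy MIR4435-2HG, and NORAD shared 30.3% of its own with other genes, so the levels of these 2 lncRNAs are less certain than the rest. The strand setting of the read counting is not given in the sources used here; if it was not set, reads of KCNQ1OT1 and KCNQ1, and of OIP5-AS1 and OIP5, cannot be told apart where they overlap.

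Long adenine runs are shown first, because the libraries were selected on poly(A) and the mature 3′ ends of MALAT1 and of the long NEAT1 isoform carry no poly(A) tail. The longest run was 13 bases in MALAT1, 22 in NEAT1, 29 in KCNQ1OT1, 10 in NORAD, 18 in TUG1, 29 in OIP5-AS1, 3 in DANCR and 13 in CYTOR. Whether reads came from RNA caught at these runs was not tested. The windows below are on the transcript, with the run in capitals; the lines cover bases 8311 to 8375 of MALAT1, 89224 to 89304 of KCNQ1OT1 and 329 to 383 of DANCR.
MALAT1: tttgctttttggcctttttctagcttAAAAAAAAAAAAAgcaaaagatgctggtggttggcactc
KCNQ1OT1: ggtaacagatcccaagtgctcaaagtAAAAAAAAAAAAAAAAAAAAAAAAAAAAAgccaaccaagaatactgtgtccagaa
DANCR: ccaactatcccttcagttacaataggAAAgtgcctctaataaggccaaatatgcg

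NORAD is defined by its repeated Pumilio sites, and 3 of its 15 matches to TGTANATA (sense strand, N any base) are printed with the match in capitals, at transcript bases 750 to 779, 1230 to 1259 and 2961 to 2990. NORAD held 2.81 matches per kb, against a mean of 0.109 per kb in lncRNAs over 2 kb, and 9.28% of 14854 lncRNA transcripts held at least 1.
NORAD element 1: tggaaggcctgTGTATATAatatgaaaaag
NORAD element 3: aaatcacatttTGTAAATAcctttttgtta
NORAD element 11: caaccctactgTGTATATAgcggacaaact

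The letters TGGAC, the DNA form of a sequence reported around methylated IGF2BP sites, were also counted on the sense strand. They occurred 12 times in TUG1 (1.61 per kb), 6 times in NORAD (1.12), 22 times in NEAT1 (0.967), 76 times in KCNQ1OT1 (0.829), 4 times each in CYTOR (0.533) and OIP5-AS1 (0.453), 3 times in MALAT1 (0.345) and not in DANCR. The mean over lncRNAs longer than 2 kb was 0.977 per kb, and 57.34% of lncRNA transcripts held at least 1. A match is a description of the letters, not evidence of binding.

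The DANCR promoter is printed because DANCR fell in every knockout and RNA kind, from 250 bases before to 50 after the start in RefSeq (GRCh38.p14, chr4:52712144-52712443, plus strand), with CCAAT or its reverse complement ATTGG in capitals. It held 5 such matches on either strand, a number reached or passed by 0.3588% of 35116 promoters of that length, of which 34.614% held at least 1. Other promoter motifs were scanned as well, and this share was computed only for DANCR and this motif, so it is a description. TUG1 and OIP5-AS1, neither of which fell in every knockout and RNA kind, held 2 such matches each. A link between these matches and the fall of DANCR was not tested. RefSeq promoter entries matched 6 of the 8 names.
DANCR promoter: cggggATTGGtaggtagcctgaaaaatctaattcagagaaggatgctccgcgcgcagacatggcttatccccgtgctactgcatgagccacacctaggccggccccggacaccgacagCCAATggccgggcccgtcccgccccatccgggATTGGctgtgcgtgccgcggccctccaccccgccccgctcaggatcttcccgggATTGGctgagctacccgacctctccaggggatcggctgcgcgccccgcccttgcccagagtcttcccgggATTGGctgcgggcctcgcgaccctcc

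The 32 libraries held 13689067 to 26119480 counts each. Replicate 2 of the total-RNA IGF2BP1 knockout and replicate 1 of the nuclear IGF2BP1 knockout were the same library: 0 of 62703 identifiers differed. In it NORAD (225 normalized CPM, total scale) and OIP5-AS1 (80.4) lay outside the total control range (294 to 311 and 117 to 142). On the nuclear scale they (226 and 80.6) lay inside the nuclear control range (194 to 237 and 74.3 to 97.0). MALAT1 and TUG1 did likewise, KCNQ1OT1, DANCR and CYTOR lay outside both ranges, and NEAT1 lay inside both. Replicate 1 of the total IGF2BP1 knockout was also outside the total range for NORAD (350). Which label is right was not settled, so IGF2BP1 results are given with and without this library. In each knockout the targeted transcript was lower in every library than in every control library of the same RNA kind. The log2 changes (total, nuclear, cytoplasmic) of IGF2BP1 were -4.23, -3.98 and -4.28, those of IGF2BP2 -1.31, -1.39 and -1.35, and those of IGF2BP3 -1.19, -0.95 and -1.21. IGF2BP3 transcript was also lower in the IGF2BP2 knockout (-0.48, -0.44 and -0.54), and IGF2BP1 transcript was lower in both other knockouts. All 5 HEK293 markers were present in every library, but their summed level in total RNA was 971.973 to 1006.738 normalized CPM in the control and 633.914 to 663.098, 793.633 to 831.158 and 479.365 to 486.259 in the knockouts of IGF2BP1, IGF2BP2 and IGF2BP3; in the IGF2BP3 knockout 3 of the 5 rose and 2 fell in every RNA kind. The summed level of 5 blood and liver markers in total RNA was 2.036 to 2.605 in the control, 2.426 to 2.820 in the other two knockouts and 4.479 to 5.078 in the IGF2BP3 knockout, with 1 to 3 of the 5 at 0 throughout a group. The 1 such marker with enough counts to test was higher in the IGF2BP3 knockout (1.22, 1.27 and 0.99 in total, nuclear and cytoplasmic RNA). The part of these marker differences in the changes below was not tested.

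Levels are CPM (counts scaled to the library total) corrected by the trimmed-mean-of-M-values (TMM) factor of edgeR within 1 RNA kind, and are called normalized CPM. Because the 3 kinds of RNA were scaled apart, levels are compared within a kind, and nuclear with cytoplasmic RNA only through the ratio fits. A change is a log2 fold change with its standard error (SE) from edgeR's quasi-likelihood test with the batch as a term, and a call is a Benjamini-Hochberg adjusted p below 0.05 over all genes tested. In counts of genes, rose, fell, higher and lower mean called in that direction. The 3 knockouts are compared with the same control libraries, so their changes share that error. In bulk RNA, fewer cells that express a gene and less of its RNA per cell cannot be told apart, and a fraction's level is relative to the poly(A) RNA of that fraction, not per cell.

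Per kb of exon, the control libraries of total RNA put the 8 lncRNAs in 3 tiers. NORAD was highest at 56.1 ± 1.48 normalized CPM per kb (SD, n = 4), then DANCR at 46.5 ± 2.72 and TUG1 at 31.6 ± 1.92. MALAT1 (10.4 ± 0.698) and OIP5-AS1 (10.2 ± 1.01) did not differ beyond their spread, and NEAT1 followed at 7.44 ± 1.11. KCNQ1OT1 (0.241 ± 0.0470) and CYTOR (0.0599 ± 0.00630) were far lower. In cytoplasmic RNA DANCR led at 71.8 ± 2.63, ahead of NORAD at 51.8 ± 3.71, and the lowest 2 were CYTOR (0.0698 ± 0.0175) and KCNQ1OT1 (0.0475 ± 0.0167), whose ranges overlapped. In nuclear RNA DANCR (50.4 ± 3.80) and NORAD (40.9 ± 3.60) were again on top, followed by TUG1 at 30.9 ± 4.47 and MALAT1 at 12.2 ± 1.80. The length is the union of all annotated exons, which for CYTOR (17693 bp) is much longer than for DANCR (2285 bp). For NEAT1 it is 22767 bp and takes in the long isoform without a poly(A) tail. The NEAT1 level per kb, and its place in the order, may therefore be too low.

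**Figure D1:**
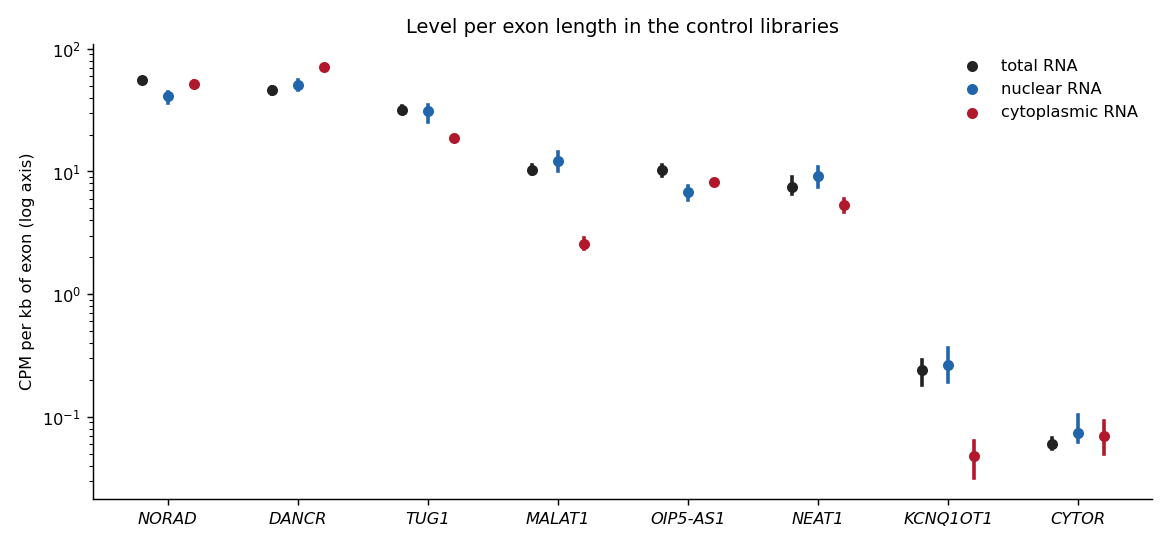
Level of each lncRNA in the control libraries in normalized CPM per kb of exon (log axis), with the mean as a point and the lowest and highest of 4 libraries as a bar, for total, nuclear and cytoplasmic RNA. NORAD, DANCR and TUG1 stand highest, and KCNQ1OT1 and CYTOR lie more than an order of magnitude below the rest.

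In control cells 4 of the 8 lncRNAs were called nuclear, 3 cytoplasmic, and 1 neither, where 65.9% of 16246 genes were called in 1 or the other direction. KCNQ1OT1 and MALAT1 were the most nuclear, at 5.23-fold (log2 2.39 ± 0.11, adjusted p = 4.66e-15) and 4.45-fold (2.15 ± 0.08, adjusted p = 4.23e-16) the cytoplasmic level, higher than in 97.7% and 96.9% of all genes. NEAT1 (1.62-fold, log2 0.69 ± 0.06) and TUG1 (1.54-fold, 0.62 ± 0.07) were nuclear to a lesser degree and close to each other. DANCR (log2 -0.60 ± 0.06, 1.51-fold cytoplasmic), NORAD (-0.43 ± 0.07, 1.35-fold) and OIP5-AS1 (-0.35 ± 0.06, 1.28-fold) were cytoplasmic. CYTOR did not differ (-0.03 ± 0.26, adjusted p = 0.918), and its log2 ratio was 0.91 in batch 4 and between -0.60 and -0.20 in the other batches. All 7 calls held when any 1 library was left out. The 8 mRNAs known to stay in the nucleus with retained introns had a median log2 ratio of 1.72 in the control. That of 8 cytoplasmic mRNAs was -0.43, and that of 8 mitochondrially encoded mRNAs was -2.11. The scaling puts most genes near 0 (median over all genes -0.02), so these ratios cannot tell how cleanly the fractions were separated. Carry-over between the fractions was not tested.

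NEAT1 rose in all 3 kinds of RNA in the IGF2BP2 and IGF2BP3 knockouts. Its counts are for the whole gene in poly(A)-selected RNA, and isoforms were not told apart. The long isoform, whose mature 3′ end has no poly(A) tail, was therefore not measured on its own. In total RNA the control libraries held 149.5, 152, 205 and 171 normalized CPM, the IGF2BP2 knockout 561 and 545, and the IGF2BP3 knockout 777 and 918. In cytoplasmic RNA the control held 107, 109, 135 and 136, the IGF2BP2 knockout 513 and 524, and the IGF2BP3 knockout 592 and 583 in batches 3 and 4. Neither knockout overlapped the control in any RNA kind. The log2 changes in the IGF2BP2 knockout were 1.56 ± 0.11 in total RNA (adjusted p = 3.45e-07), 0.70 ± 0.11 in the nucleus (1.24e-06) and 1.94 ± 0.04 in the cytoplasm (2.59e-29). Those in the IGF2BP3 knockout were 2.18 ± 0.11, 1.66 ± 0.11 and 2.12 ± 0.04, with adjusted p between 2.72e-30 and 3.13e-08. In the nucleus the levels were 170.2, 199.6, 249.9 and 219 in the control, 398 and 362 without IGF2BP2, and 693 and 785 without IGF2BP3. The IGF2BP3 knockout exceeded the IGF2BP2 knockout in each kind of RNA, by 0.62, 0.96 and 0.18 on the log2 scale (adjusted p at most 0.000443), although the cytoplasmic difference was -0.39 (adjusted p = 0.409) with batch 5 included and no batch term. In the IGF2BP1 knockout NEAT1 was called only in cytoplasmic RNA, at 137 in both libraries (0.34 ± 0.04, adjusted p = 2.54e-08; lost without the batch term). Its total levels there were 174 and 188 and its nuclear levels 189 and 157, both overlapping the control. Without the duplicated library the nuclear change was -0.35 (adjusted p = 0.0322, and 0.0315 without control replicate 1), and without knockout or control replicate 1 the total change was 0.30 (0.0231 and 0.0221).

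MALAT1, the speckle lncRNA on the same stretch of chromosome 11, followed the same order. Total RNA held 91.4, 92.2, 98.9 and 83.9 normalized CPM in the control, 169 and 166 without IGF2BP2, and 264 and 359 without IGF2BP3. Cytoplasmic RNA held 25.3, 22.8, 20.7 and 22.1 in the control, 75.0 and 80.3 without IGF2BP2, and 101 and 93.1 without IGF2BP3. Every one of these knockout libraries was above every control library. The changes were 0.87 ± 0.13 (total, adjusted p = 0.000183) and 1.85 ± 0.15 (cytoplasmic, 9.29e-13) without IGF2BP2, and 1.76 ± 0.14 (7.32e-07) and 2.18 ± 0.15 (7.66e-15) without IGF2BP3. The nucleus separated the knockouts: against 88.3, 126, 104 and 114 in the control, the IGF2BP2 knockout held 123 and 116, within the control range (0.13 ± 0.12, adjusted p = 0.378), and the IGF2BP3 knockout 199 and 236, above it (1.00 ± 0.12, adjusted p = 3.04e-09). The difference between these knockouts was itself called in the nucleus (0.86, adjusted p = 8.44e-08). Without IGF2BP1, MALAT1 was called only in cytoplasmic RNA (29.9 and 34.5; 0.42 ± 0.17, adjusted p = 0.0391), a call that ended when either knockout library or control replicate 1 or 2 was left out (0.24, adjusted p = 0.512, without knockout replicate 2), and under DESeq2 and limma. Its nuclear levels of 120.5 (the duplicated library) and 84.5 gave -0.07 ± 0.12, and -0.58 (adjusted p = 0.000252) without the duplicated library, or without control replicate 1 (0.000237). The total change of 0.25 ± 0.13 became 0.37 (0.0157) without knockout replicate 1 and 0.38 (0.0150) without control replicate 1.

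KCNQ1OT1, the antisense RNA of the imprinted KCNQ1 domain, moved in opposite directions. In nuclear RNA it held 25.1, 33.5, 20.2 and 17.7 normalized CPM in the control and fell to 5.79 and 6.33 in the IGF2BP2 knockout (-1.66 ± 0.17, adjusted p = 3.87e-11). The IGF2BP3 knockout held 12.6 and 18 in the nucleus, a change that missed the threshold (-0.33 ± 0.15, adjusted p = 0.0619) and passed it when any of 8 single libraries was left out (-0.63, adjusted p = 0.0164, without knockout replicate 2). In cytoplasmic RNA the order turned: the control held 5.84, 5.49, 3.18 and 2.89, the IGF2BP2 knockout 3.00 and 4.10 (0.22 ± 0.20, adjusted p = 0.342), and the IGF2BP3 knockout 8.56 and 7.25 (1.38 ± 0.17, adjusted p = 9.21e-09), above every control library. Total RNA held 24.4, 26.5, 20.7 and 16.7 in the control, 11.7 and 11.2 without IGF2BP2 (-0.72 ± 0.15, adjusted p = 0.00198) and 26.9 and 32.1 without IGF2BP3 (0.65 ± 0.14, adjusted p = 0.00221). The total calls were less firm, at -0.51 (adjusted p = 0.0733) without control replicate 3 for IGF2BP2, and at 0.43 (0.0986) without knockout replicate 2 or 0.45 (0.0950) without control replicate 4 for IGF2BP3. The IGF2BP3 knockout was above the IGF2BP2 knockout in all 3 kinds, by 1.37, 1.33 and 1.16 on the log2 scale (adjusted p between 1.21e-08 and 1.36e-05). In the IGF2BP1 knockout KCNQ1OT1 was not called in any RNA kind; its nuclear change was 0.06 ± 0.14, and -0.40 (adjusted p = 0.0463) without the duplicated library, 0.53 (0.0110) without replicate 2 or 0.52 (0.0124) without control replicate 2; in total RNA 0.25 ± 0.14 became 0.43 (0.00857) without replicate 1 and 0.44 (0.00813) without control replicate 1, and the cytoplasmic 0.33 ± 0.15 passed without either IGF2BP2 knockout library (0.0426 and 0.0422). The cytoplasmic IGF2BP2 change was 0.54 (0.0356) without its replicate 1. Raw counts of KCNQ1OT1 were as low as 49 per library.

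TUG1 rose by a small, similar amount in the cytoplasm of all 3 knockouts. The control held 188, 182, 198 and 196 normalized CPM, the IGF2BP1 knockout 244 and 248, the IGF2BP2 knockout 255 and 263 and the IGF2BP3 knockout 268 and 271, with no overlap. The changes were 0.41 ± 0.04, 0.39 ± 0.04 and 0.45 ± 0.04 (adjusted p at most 8.71e-11). In nuclear RNA no change was called and the groups overlapped (control 259 to 353, knockouts 272 to 393). Total RNA held 305, 308, 348 and 320.4 in the control, 424 and 416 without IGF2BP2 (0.33 ± 0.09, adjusted p = 0.00748) and 429.9 and 443 without IGF2BP3 (0.39 ± 0.09, 0.00288). The first of these calls ended without control replicate 4 (0.26, adjusted p = 0.150) or either knockout library, and the second without control replicate 4 (0.33, 0.0796) or knockout replicate 2 (0.33, 0.0977).

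**Figure D2:**
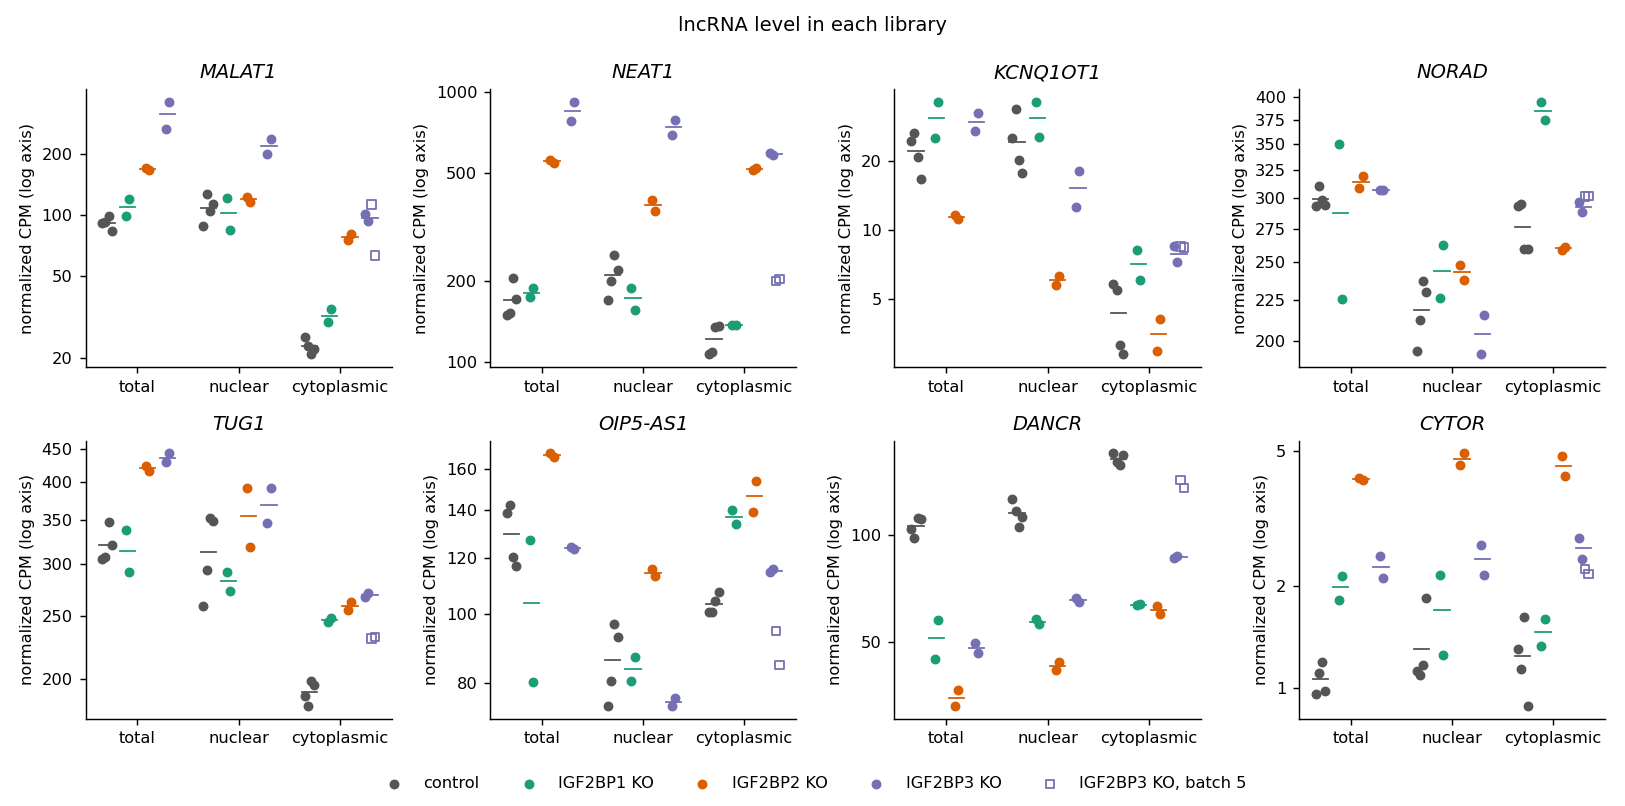
Normalized CPM (log axis, own range in each panel) of the 8 lncRNAs in every library, by RNA kind, with control and the 3 knockouts as filled points, the batch 5 libraries as open squares, and the mean without batch 5 as a line. NEAT1 and MALAT1 lie above the control in total and cytoplasmic RNA of the IGF2BP2 and IGF2BP3 knockouts, DANCR lies below it in all 3 knockouts, and the 2 batch 5 libraries of NEAT1 sit at 199.7 and 203, below the 583 and 592 of batches 3 and 4.

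DANCR was the lncRNA that fell in every knockout and every RNA kind. In cytoplasmic RNA, where it is enriched, the control held 169.9, 160.3, 158 and 168 normalized CPM. The IGF2BP1 knockout held 63.5 and 64.0 there, the IGF2BP2 knockout 63.2 and 60.0, and the IGF2BP3 knockout 85.9 and 87.4 in batches 3 and 4. The changes were -1.37 ± 0.05 (adjusted p = 1.12e-21), -1.40 ± 0.05 (8.13e-23) and -0.91 ± 0.05 (2.98e-18). Total RNA held 104, 98.4, 112 and 111 in the control and 44.7 and 57.8, 33.0 and 36.6, and 49.7 and 46.7 in the knockouts of IGF2BP1, IGF2BP2 and IGF2BP3. These were changes of -0.99 ± 0.12, -1.67 ± 0.12 and -1.20 ± 0.12 (adjusted p at most 6.84e-05). Nuclear RNA changed by -1.09 ± 0.09, -1.35 ± 0.10 and -0.73 ± 0.09, from 126, 117, 105 and 113 in the control to 57.9 and 56.2, 41.6 and 43.9, and 66.6 and 65.0. No knockout library of batches 1 to 4 reached the lowest control library, and all 9 calls held when any 1 library was left out. The fall was smaller in the IGF2BP3 than in the IGF2BP2 knockout by 0.47, 0.62 and 0.49 on the log2 scale (adjusted p = 0.00608, 5.08e-07 and 1.06e-10); in total RNA that difference ended without replicate 1 of the IGF2BP2 (0.37, 0.160) or the IGF2BP3 knockout (0.39, 0.122).

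NORAD, the Pumilio-binding RNA, was called higher in cytoplasmic RNA of the IGF2BP1 and IGF2BP3 knockouts and in nuclear RNA of the IGF2BP1 knockout, and in no knockout in total RNA. Total RNA held 294, 311, 299 and 294 normalized CPM in the control, 309 and 319.8 without IGF2BP2 and 308 and 307 without IGF2BP3, with no call (0.08 ± 0.13 and 0.05 ± 0.13). The total IGF2BP1 libraries were 350.0 and 225, on either side of the control, and the change of -0.10 ± 0.13 became 0.26 (adjusted p = 0.0203) without replicate 2, the duplicated library, and -0.47 (adjusted p = 1.41e-05) without replicate 1. In cytoplasmic RNA the control held 293, 295, 259.8 and 259.6, and the IGF2BP1 knockout 395 and 374, above all of them (0.39 ± 0.04, adjusted p = 1.07e-10). The IGF2BP2 knockout was at 259 and 261 (0.00 ± 0.04) and the IGF2BP3 knockout at 297 and 289 (0.17 ± 0.04, adjusted p = 0.00014), the latter overlapping the control and not called without the batch term. In the nucleus the control held 194, 212, 237 and 230.2, the IGF2BP1 knockout 226 and 262, and the IGF2BP2 knockout 248 and 238 (0.06 ± 0.10, not called). The nuclear IGF2BP1 change of 0.26 ± 0.10 was close to the threshold (adjusted p = 0.0443) and was lost without any of 8 single libraries, among them knockout replicate 2 (0.22, adjusted p = 0.192). NORAD in the IGF2BP3 knockout was lower in the nucleus, at 193 and 215 against 194 to 237 (-0.20 ± 0.10, adjusted p = 0.0906), which missed the threshold and passed it without control replicate 1 or 2 or either IGF2BP1 knockout library (0.0288 to 0.0331).

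OIP5-AS1 rose in the IGF2BP2 knockout in each RNA kind and in the cytoplasm of the IGF2BP1 knockout. In cytoplasmic RNA the control held 101, 101, 105 and 107 normalized CPM, the IGF2BP1 knockout 140.1 and 134 (0.44 ± 0.05, adjusted p = 2.74e-09) and the IGF2BP2 knockout 139 and 154 (0.47 ± 0.05, 2.74e-10). The IGF2BP3 knockout held 114 and 116, just above the control (0.12 ± 0.05, adjusted p = 0.032), a call that ended without knockout replicate 1 (0.08, 0.276), control replicate 4 (0.10, 0.167) or either IGF2BP1 knockout library, and under DESeq2. In nuclear RNA the control held 74.3, 80.6, 97.0 and 92.8; the IGF2BP2 knockout was higher, at 116 and 113 (0.27 ± 0.09, 0.0122), and the IGF2BP3 knockout, at 74.4 and 76.2, lay at the lower end of the control range and was called lower within batches (-0.33 ± 0.09, 0.00225). Both nuclear calls ended without control replicate 3 (0.30, adjusted p = 0.105, and -0.30, 0.104), the first also without control replicate 4 or either knockout library, and the second without knockout replicate 1 (-0.29, 0.0767). The IGF2BP3 knockout was lower than the IGF2BP2 knockout in the nucleus (log2 difference -0.60, adjusted p = 3.84e-07) and in the cytoplasm (-0.35, 4.74e-08). Total RNA held 139, 142, 120.4 and 117 in the control and 168 and 166 in the IGF2BP2 knockout (0.50 ± 0.13, 0.00651; lost without either knockout library or control replicate 3 or 4, at 0.47 to 0.50). The total IGF2BP1 libraries were 127 and 80.4, the latter the duplicated library, and their call of -0.47 ± 0.13 (adjusted p = 0.0181) became -0.12 (0.326) without it, and likewise -0.12 (0.313) without control replicate 2 of its batch.

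CYTOR had few reads, 15 to 127 raw counts per library, and was highest without IGF2BP2. Total RNA held 0.957, 1.11, 1.19 and 0.979 normalized CPM in the control, 4.16 and 4.09 without IGF2BP2, and 2.45 and 2.10 without IGF2BP3. The changes were 1.92 ± 0.24 (adjusted p = 2.92e-05) and 1.06 ± 0.25 (0.00399), the latter 0.99 (0.0576) without knockout replicate 1. Nuclear and cytoplasmic changes in the IGF2BP2 knockout were of the same size (1.68 ± 0.28 and 1.86 ± 0.23), with 4.55 and 4.92 in the nucleus against 1.12, 1.09, 1.16 and 1.84, and 4.82 and 4.23 in the cytoplasm against 1.3, 1.14, 1.62 and 0.883. The IGF2BP3 knockout was called in the cytoplasm (2.78 and 2.40; 1.06 ± 0.25, adjusted p = 0.00047), and in the nucleus the change was 0.70 ± 0.30 (2.63 and 2.15; adjusted p = 0.0509), which passed without any of 6 single libraries (0.0315 to 0.0435), among them knockout replicate 2 (0.99) and control replicate 4 (1.06). CYTOR was lower in the IGF2BP3 than in the IGF2BP2 knockout with log2 differences of -0.86, -0.98 and -0.80 (adjusted p = 0.00308, 0.0012 and 0.000135). The total difference ended without replicate 2 of the IGF2BP2 (-0.76, 0.0964) or IGF2BP3 knockout (-0.80, 0.0681), and the nuclear one without IGF2BP3 replicate 2 (-0.68, 0.147). Without IGF2BP1 only total RNA was called (1.82 and 2.14; 0.93 ± 0.26, adjusted p = 0.0218), and not without knockout replicate 1 (0.94, 0.0563), replicate 2 (0.92, 0.10), or control replicate 1 or 2, nor under DESeq2. Its near-copy MIR4435-2HG rose too in the IGF2BP2 knockout (0.92, 0.88 and 0.88 in total, nuclear and cytoplasmic RNA) and was not called in the IGF2BP3 knockout (-0.15, -0.34 and -0.01), so how reads were split between the 2 genes was not tested.

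**Figure D3:**
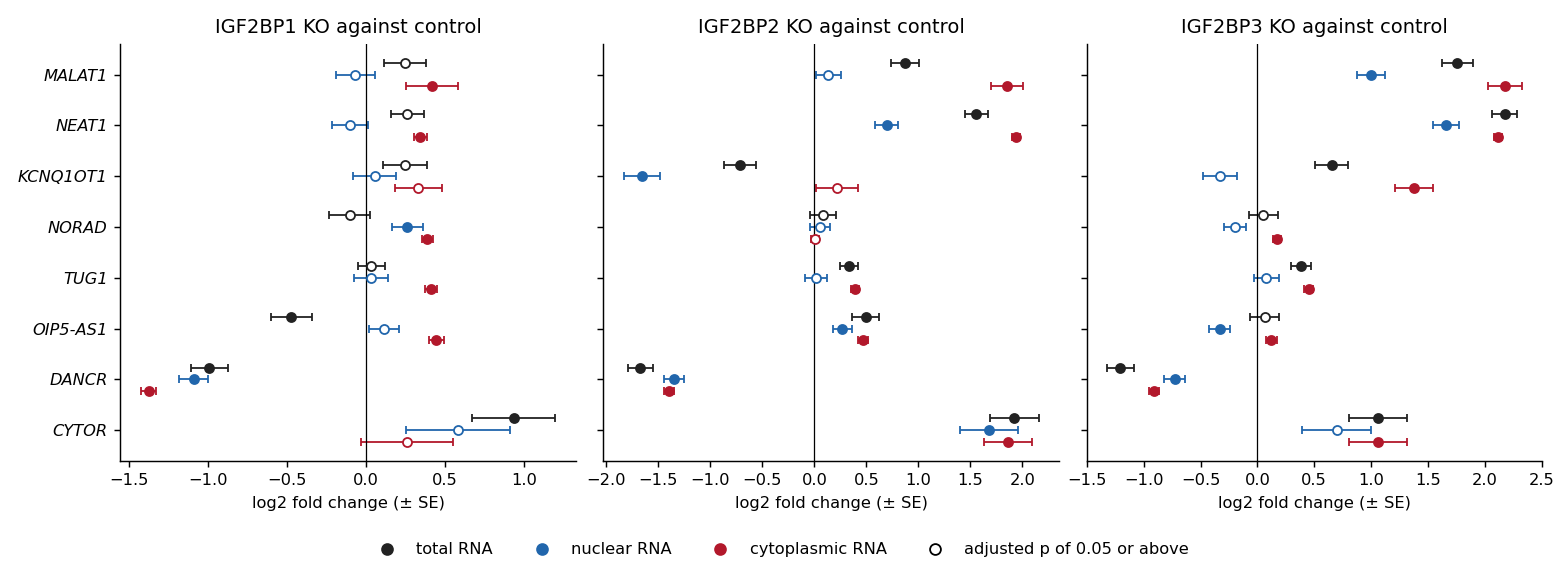
Log2 fold change of each lncRNA against the control with its SE, for total, nuclear and cytoplasmic RNA (own horizontal axis in each panel); filled points have an adjusted p below 0.05 and open points do not. In the IGF2BP2 and IGF2BP3 knockouts the cytoplasmic points of MALAT1 and NEAT1 lie to the right of the nuclear ones, and all 9 points of DANCR lie left of 0.

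Counted over the 8 lncRNAs, 1 rose and 2 fell in total RNA of the IGF2BP1 knockout, where 24.2% of all 18745 genes were called. In the IGF2BP2 knockout 5 rose and 2 fell against a background of 47%, and in the IGF2BP3 knockout 5 rose and 1 fell against 46.9%. In nuclear RNA 1 rose and 1 fell (background 25.7%), 3 rose and 2 fell (49.7%), and 2 rose and 2 fell (50.4%) in the knockouts of IGF2BP1, IGF2BP2 and IGF2BP3. In cytoplasmic RNA 5 rose and 1 fell (44.4%), 5 rose and 1 fell (64.2%), and 7 rose and 1 fell (64.7%). In nuclear RNA, in total RNA of the IGF2BP1 knockout and in cytoplasmic RNA of the IGF2BP2 knockout, these counts lay within about 1 gene of the share of all genes, and nothing is read from them. They also moved when 1 library was left out: from 2 to 5 in nuclear RNA of the IGF2BP1 knockout without control or knockout replicate 1, and to 1 without control replicate 3 or 4 or any IGF2BP2 or IGF2BP3 knockout library; from 4 to 7 in that of the IGF2BP3 knockout without control replicate 1 or 2 or either IGF2BP1 knockout library; and from 3 to 6 in total RNA of the IGF2BP1 knockout without control or knockout replicate 1. The median log2 change of the 8 in cytoplasmic RNA was 0.36, 0.43 and 0.76, with medians over all genes of 0.01, 0.01 and 0.02. Between the IGF2BP3 and IGF2BP2 knockouts, which share batches 3 and 4, 4 were higher and 2 lower in total RNA (43.3% of genes called), 4 higher and 3 lower in nuclear RNA (48.2%), and 5 higher and 2 lower in cytoplasmic RNA (62.7%). TUG1 was called in none of these 3 comparisons (0.05, 0.06 and 0.06). Of the calls not described above, cytoplasmic MALAT1 (0.32, adjusted p = 0.0128) ended without replicate 1 of the IGF2BP2 (0.24, 0.203) or IGF2BP3 knockout (0.22, 0.247), total OIP5-AS1 (-0.43, 0.0146) without any 1 of the 4 knockout libraries (0.117 to 0.139), and nuclear NORAD (-0.25, 0.0301) without any of 5 libraries, at -0.15 (0.422) without IGF2BP3 replicate 1.

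Leaving out the duplicated library changed several results of the IGF2BP1 knockout. In nuclear RNA 5 lncRNAs were then called in place of 2: MALAT1, NEAT1 and KCNQ1OT1, lower as given above, DANCR (-1.05, adjusted p = 1.86e-09) and NORAD (0.31, 0.0402). Nuclear TUG1 (-0.11), OIP5-AS1 (0.11) and CYTOR (0.20, against 0.58 with the library) were not called. In total RNA DANCR was at -1.21 (5.83e-11) and NORAD was called higher, and MALAT1 (0.11), NEAT1 (0.22), KCNQ1OT1 (0.0537), TUG1 (0.15), OIP5-AS1 (-0.12) and CYTOR (0.92) were not called. Of the ratios, the same 3 were called: MALAT1 (-1.19, 6.85e-05), NEAT1 (-0.69, 0.00587) and TUG1 (-0.57, 0.0229). The ratio change of KCNQ1OT1 was -0.56, and that of CYTOR turned from 0.33 to -0.30. Those of NORAD, OIP5-AS1 and DANCR were -0.06, -0.32 and 0.25. None of these was called.

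The nuclear to cytoplasmic ratio of MALAT1, NEAT1 and TUG1 fell in all 3 knockouts and that of KCNQ1OT1 in the IGF2BP2 and IGF2BP3 knockouts, and no ratio of the 8 was called higher. The ratio change is the nuclear minus the cytoplasmic log2 change within a batch. MALAT1 had log2 ratios of 1.66, 2.32, 2.20 and 2.22 in the control (batches 1 to 4), 1.88 and 1.16 without IGF2BP1, 0.54 and 0.36 without IGF2BP2, and 0.78 and 1.15 without IGF2BP3. KCNQ1OT1 went from 1.96, 2.46, 2.53 and 2.47 to 2.00 and 1.93, 0.77 and 0.45, and 0.36 and 1.11. NEAT1, from 0.52, 0.72, 0.76 and 0.55 in the control, reached 0.33 and 0.06 without IGF2BP1, 0.03 and 0.24 without IGF2BP3, and crossed to the cytoplasmic side at -0.54 and -0.72 without IGF2BP2. For MALAT1, KCNQ1OT1 and NEAT1 no library pair of the IGF2BP2 or IGF2BP3 knockout reached the lowest control ratio. The share of all genes for which this holds was not computed. In the IGF2BP2 knockout 4 of 8 ratios were lower, where 17.5% of all genes were called: KCNQ1OT1 by -1.94 ± 0.24 (adjusted p = 7.42e-11), MALAT1 by -1.76 ± 0.14 (1.28e-22), NEAT1 by -1.28 ± 0.12 (2.08e-17) and TUG1 by -0.42 ± 0.12 (0.00521). In the IGF2BP3 knockout 6 of 8 were lower (10.9% called): KCNQ1OT1 (-1.77 ± 0.21, 4.48e-11), MALAT1 (-1.24 ± 0.13, 6.72e-13), NEAT1 (-0.52 ± 0.12, 0.00067), OIP5-AS1 (-0.51 ± 0.11, 0.000496), TUG1 (-0.44 ± 0.12, 0.00494) and NORAD (-0.43 ± 0.11, 0.00466). In the IGF2BP1 knockout 3 of 8 were lower (4.11% called): MALAT1 (-0.47 ± 0.14, 0.0294), NEAT1 (-0.43 ± 0.12, 0.0221) and TUG1 (-0.37 ± 0.12, 0.0487). KCNQ1OT1 was at -0.23 there (0.579). The ratio of DANCR changed by 0.30, 0.02 and 0.12 and that of CYTOR by 0.33, -0.23 and -0.42, none of them called; without the batch term DANCR was called higher in the IGF2BP1 knockout (0.36, adjusted p = 0.0489). The median ratio change of the 8 was -0.28, -0.33 and -0.48 for IGF2BP1, IGF2BP2 and IGF2BP3, beside 0.01, 0.03 and -0.03 over all genes.

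How far these ratio calls held differed between the lncRNAs. Those of MALAT1, KCNQ1OT1 and NEAT1 in the IGF2BP2 knockout and of MALAT1 and KCNQ1OT1 in the IGF2BP3 knockout held without any 1 library. In the IGF2BP3 knockout, NEAT1 (-0.30, adjusted p = 0.472), NORAD (-0.27, 0.528), TUG1 (-0.24, 0.612) and OIP5-AS1 (-0.40, 0.221) lost their call without nuclear knockout replicate 1, and also without its cytoplasmic partner or control replicate 3 of either fraction; NORAD and TUG1 also lost it without control replicate 4 of either fraction (0.0718 to 0.208). TUG1 in the IGF2BP2 knockout lost it without nuclear knockout replicate 2 (-0.21, 0.435) or its cytoplasmic partner, or control replicate 3 or 4 of either fraction (0.0795 to 0.165). In the IGF2BP1 knockout NEAT1 (-0.23, 0.638) and TUG1 (-0.23, 0.647) lost it without nuclear replicate 2, or control replicate 2 (-0.20, 0.720, and -0.19, 0.727) or their cytoplasmic partners. TUG1 lost it too without control replicate 3 or 4 of either fraction or cytoplasmic IGF2BP3 replicate 1 or 2 (0.0517 to 0.0941), 10 of 20 libraries in all. MALAT1 was at -1.19 without either library of knockout replicate 1, the nuclear one being the duplicated library, changed sign without either library of knockout replicate 2 (0.18) or control replicate 2 (0.22), and lost its call without cytoplasmic IGF2BP3 replicate 1 (-0.47, 0.0544). OIP5-AS1, not called (-0.32, 0.0910), passed without any 1 IGF2BP2 knockout library (-0.35, 0.0321 to 0.0337). DESeq2 called none of the 8 in the IGF2BP1 knockout (3 at an unadjusted p below 0.05) and did not call MALAT1 (-1.24, adjusted p = 0.0541) or TUG1 (-0.43, 0.0555) in the IGF2BP3 knockout. Without the batch term the calls of NEAT1 (0.0948), NORAD (0.351), TUG1 (0.273) and OIP5-AS1 (0.0666) in the IGF2BP3 knockout, of TUG1 (0.210) in the IGF2BP2 knockout, and of MALAT1 (0.0843) and NEAT1 (0.140) in the IGF2BP1 knockout were lost, and OIP5-AS1 in the IGF2BP1 knockout was called (-0.44, 0.0428). Limma on log2(FPKM + 1), with 1 and 8 genes called in all for IGF2BP2 and IGF2BP3, called none in any knockout (3, 3 and 4 unadjusted).

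Other RNAs of the same fractions moved with these ratios. All 8 mRNAs known to be held in the nucleus with introns were called lower in ratio in the IGF2BP2 knockout (median -1.01). In the IGF2BP3 knockout 7 of 8 were called lower (-0.65) and in the IGF2BP1 knockout 6 of 8 (-0.43), and the uncalled ones changed in the same direction. Over all genes 9.71%, 6.81% and 1.76% were called lower in these knockouts. Their summed level in nuclear RNA was 2037.429 to 3465.005 normalized CPM in the control and 1720.917 to 2080.487, 2337.711 to 2711.055 and 2540.270 to 2658.519 in the knockouts of IGF2BP1, IGF2BP2 and IGF2BP3; in cytoplasmic RNA it was 654.748 to 737.505 in the control and 807.794 to 830.074, 976.704 to 1017.836 and 744.917 to 779.013. Of 1898 genes at least 2-fold nuclear in the control, 171, 949 and 614 were called lower in ratio in the 3 knockouts. A higher ratio was called for 3, 2 and 3. The change was negative in 80.3%, 96.21% and 91.78% of the 1898 genes, with medians of -0.32, -0.93 and -0.68. These genes were picked in the same control libraries that the change is measured against. Of 8 cytoplasmic mRNAs, 1, 6 and 2 were called higher in ratio, where 2.36%, 7.74% and 4.07% of all genes were called higher. Of 8 mitochondrially encoded mRNAs, 8 were called higher in ratio in the IGF2BP3 knockout (median 0.92) and 1 in the IGF2BP1 knockout. All 8 changes were positive in the IGF2BP1 knockout (median 0.37). In the IGF2BP2 knockout none was called higher and 1 was called lower (median -0.30). The part of these shifts between fractions in the lower ratios of MALAT1, KCNQ1OT1 and NEAT1 was not tested.

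**Figure D4:**
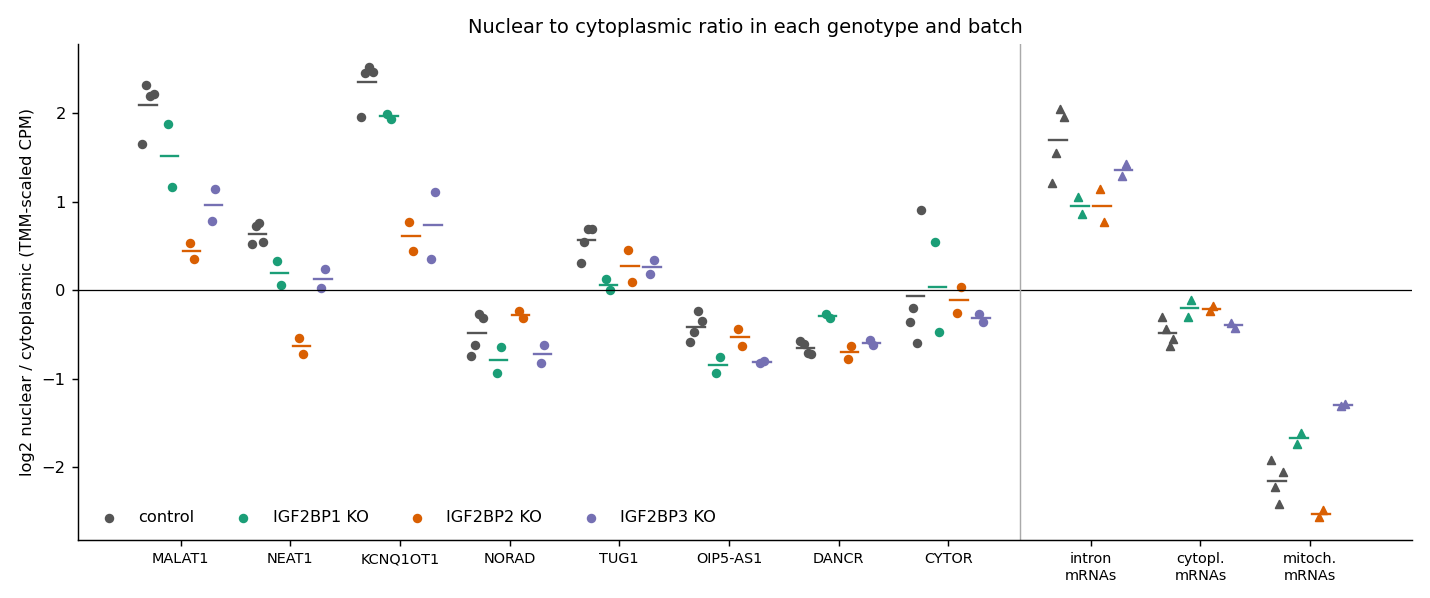
Log2 nuclear to cytoplasmic ratio of each lncRNA in every batch of control and knockouts (circles), and, to the right, the median of 3 marker lists of 8 mRNAs each (triangles), with the mean as a line and 0 marking equal scaled levels. MALAT1, NEAT1 and KCNQ1OT1 are lower in the IGF2BP2 and IGF2BP3 knockouts than in the control, and the mRNAs held in the nucleus with introns are lower as well.

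Of 11 genes for paraspeckle proteins tested, 2 rose and 9 fell in cytoplasmic RNA of the IGF2BP2 knockout, 1 rose and 10 fell in the IGF2BP3 knockout, and none rose and 5 fell in the IGF2BP1 knockout (medians -0.45, -0.42 and -0.07). Over all genes, 30.9% rose and 33.2% fell, 31.5% rose and 33.2% fell, and 22.5% rose and 21.9% fell in these comparisons. In total RNA 1 rose and 7 fell, 0 rose and 8 fell, and 3 rose and 1 fell, in the same order, where 23.3% of all genes rose and 23.7% fell, 23.5% rose and 23.4% fell, and 10.7% rose and 13.5% fell. In nuclear RNA fewer were called: 1 rose and 6 fell, 0 rose and 5 fell, and 0 rose and 1 fell, where 24.8% of all genes rose and 24.9% fell, 25.1% rose and 25.3% fell, and 12.7% rose and 13% fell. Among those that fell were RBM14 (-0.74), NONO (-0.61), a core paraspeckle protein, and TARDBP (-0.59) in the cytoplasm of the IGF2BP2 knockout; DAZAP1 (-0.85) and HNRNPK (-0.71) were lower in that of the IGF2BP3 knockout, and TAF15 fell in the IGF2BP1 knockout (-0.62, -0.65 and -0.54 in total, nuclear and cytoplasmic RNA). NEAT1 itself was higher in the IGF2BP2 and IGF2BP3 knockouts. Of 8 genes for speckle proteins and MALAT1 partners, 7 fell and none rose in the cytoplasm of the IGF2BP2 knockout, and 7 fell and 1 rose in that of the IGF2BP3 knockout, beside the 33.2% of all genes that fell in each; 3 rose and 4 fell in the IGF2BP1 knockout. In nuclear RNA 8, 6 and 2 fell and 0, 1 and 0 rose in the knockouts of IGF2BP2, IGF2BP3 and IGF2BP1. Over all genes 24.9%, 25.3% and 13% fell there. SRRM2, a core speckle protein, fell in the IGF2BP3 knockout (-0.70, -1.05 and -0.57). Without IGF2BP1, METTL16, which binds the MALAT1 3′ end, fell (-1.10, -1.0 and -0.82), and so did ELAC2, a tRNA 3′-processing enzyme (-0.74, -1.19 and -1.22). ELAC2 was also lower in the IGF2BP2 knockout (-0.73, -0.59 and -0.96). A fall was not particular to these lists. All 8 cytoplasmic marker mRNAs fell in total and in cytoplasmic RNA of the IGF2BP2 and IGF2BP3 knockouts (cytoplasmic medians -0.84 and -0.52). In nuclear RNA 5 and 3 of these 8 fell and 0 rose. In cytoplasmic RNA of the IGF2BP1 knockout 6 fell and 0 rose.

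For the cytoplasmic lncRNAs, 6 partner genes of NORAD and OIP5-AS1 were read: in cytoplasmic RNA 1 rose and 1 fell, 0 rose and 5 fell, and 0 rose and 6 fell in the knockouts of IGF2BP1, IGF2BP2 and IGF2BP3, where 21.9%, 33.2% and 33.2% of all genes fell. In nuclear RNA none rose, and 0, 1 and 6 fell, where 13%, 24.9% and 25.3% of all genes fell. ELAVL1, the OIP5-AS1 partner, was at -0.65 in the IGF2BP3 knockout. KHDRBS1, also called SAM68, was at -0.80 there, and TOP1, a topoisomerase, at -1.12 in the IGF2BP2 knockout. PUM2, a Pumilio protein, was at 0.18 in cytoplasmic, 0.04 in nuclear and -0.33 in total RNA of the IGF2BP1 knockout, where cytoplasmic NORAD rose. Of 8 nuclear decay genes 3 rose and 3 fell, 2 rose and 4 fell, and 2 rose and 5 fell in cytoplasmic RNA, in the same order. With 44.4%, 64.2% and 64.7% of all genes called there, these 8 stood close to the background in the IGF2BP2 knockout. MTREX, the helicase of the nuclear exosome, was at -1.01 in the IGF2BP3 knockout.

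Of 33 other lncRNAs tested, 22 rose and 5 fell in cytoplasmic RNA of the IGF2BP2 knockout, 18 rose and 6 fell in the IGF2BP3 knockout, and 10 rose and 9 fell in the IGF2BP1 knockout, where 30.9%, 31.5% and 22.5% of all genes rose and 33.2%, 33.2% and 21.9% fell. In nuclear RNA 6 rose and 9 fell, 7 rose and 10 fell, and 3 rose and 4 fell, where 24.8%, 25.1% and 12.7% of all genes rose and 24.9%, 25.3% and 13% fell. Their ratio was called lower in 15, 11 and 5 and higher in none (medians -0.50, -0.38 and -0.16). Over all genes 9.71%, 6.81% and 1.76% were called lower. The ratio changes of MALAT1, NEAT1, KCNQ1OT1 and TUG1 had the same direction. CASC15 (2.89, 2.05 and 3.82 in total, nuclear and cytoplasmic RNA) and MIR22HG (2.21, 1.32 and 2.64) rose in the IGF2BP3 knockout, where FIRRE, a nuclear lncRNA of the X chromosome, fell (-2.73, -2.89 and -2.58).

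Among the genes around the lncRNAs, KCNQ1 rose in all 3 kinds of RNA in the IGF2BP2 (0.93, 1.25 and 0.58) and IGF2BP3 (1.08, 1.29 and 0.80) knockouts, and CDKN1C, a cell-cycle inhibitor that lies 183219 bp away in the imprinted domain, rose in the IGF2BP2 (0.75, 1.49 and 0.81) and IGF2BP3 knockouts (1.66, 2.10 and 1.77). In the IGF2BP1 knockout KCNQ1 was at 0.07, 1.11 and 1.63 and CDKN1C at 0.81, 0.34 and 0.57, with total KCNQ1 and nuclear CDKN1C not called. KCNQ1OT1 in the same libraries was lower in total RNA without IGF2BP2, higher without IGF2BP3, and not called in any RNA kind without IGF2BP1. Of 7 genes of the domain tested, 2 rose and 4 fell, 2 rose and 2 fell, and 2 rose and 4 fell in total, nuclear and cytoplasmic RNA of the IGF2BP2 knockout, where 23.3%, 24.8% and 30.9% of all genes rose and 23.7%, 24.9% and 33.2% fell. In the IGF2BP3 knockout 2 rose and 0 fell, 4 rose and 0 fell, and 5 rose and 2 fell, where 23.5%, 25.1% and 31.5% of all genes rose. In the IGF2BP1 knockout 3 rose in each kind and 0, 1 and 1 fell, where 10.7%, 12.7% and 22.5% of all genes rose. Between the IGF2BP3 and IGF2BP2 knockouts 6 of the 7 were higher and none lower in each RNA kind (medians 0.66, 0.61 and 0.63), where 21.8%, 24.1% and 31.3% of all genes were higher; KCNQ1OT1 was higher as well, by 1.37, 1.33 and 1.16. FRMD8, 9249 bp from NEAT1, fell in all 3 kinds in the IGF2BP2 knockout (-0.98, -1.05 and -1.26), where NEAT1 rose. In the IGF2BP3 knockout FRMD8 was at 0.39, 0.16 and 0.13. CHP1, 2100 bp from OIP5-AS1, fell in the IGF2BP2 knockout (-0.81, -0.46 and -0.82), where OIP5-AS1 rose.

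Over 29 libraries (batch 5 and 1 copy of the duplicated library left out) and 11814 genes, the log2 levels of each lncRNA, centred within each RNA kind, were set beside those of all genes as a description; the libraries share batches and control. The pattern most like NEAT1 was that of TSPYL2 (r = 0.977), which was also among those nearest MALAT1 (0.963, after PCGF3-AS1 at 0.967). DANCR was nearest to EIF5A (0.981) and its copy EIF5AL1 (0.975), whose reads cannot be told apart with certainty. The nearest to the others were CLCN6 for KCNQ1OT1 (0.907), USP12 for NORAD (0.901), CDKN2B-AS1 for TUG1 (0.921), PABPC4L for OIP5-AS1 (0.932) and IER2 for CYTOR (0.960). Among the 8, MALAT1 and NEAT1 were most alike (0.945), then NEAT1 and TUG1 (0.857), and CYTOR and DANCR ran opposite (-0.810). Such values of r were common. The 99th percentile over all genes was 0.909 for NEAT1, 0.903 for DANCR and 0.860 for MALAT1. With only the control and 3 knockouts, r largely follows the differences between these groups.

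The batch 5 libraries of the cytoplasmic IGF2BP3 knockout gave smaller differences for several of the 8, with no control of their own batch. NEAT1 was at 199.7 and 203 normalized CPM, against 583 and 592 in batches 3 and 4 and 107 to 136 in the control, so its level was 1.65-fold the control mean in batch 5 and 4.82-fold in the other batches. DANCR was at 136 and 143, 0.848 of the control mean, against 0.528 in batches 3 and 4, and still below the lowest control library at 158. OIP5-AS1 was at 84.9 and 94.7, below all 4 controls, while batches 3 and 4 were above them; fitted alone with no batch term, batch 5 gave -0.18 (adjusted p = 0.0303). MALAT1 (113 and 63.4), KCNQ1OT1 (8.50 and 8.41), TUG1 (231 and 232), NORAD (301 and 302) and CYTOR (2.17 and 2.24) stayed above every control library, and NORAD was not called (0.15, adjusted p = 0.0563). In the model used for the main results these libraries do not enter the knockout change, since their own batch term takes them up; batch and genotype cannot be told apart for them.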

How the data were processed

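Gene-level read counts from 32 libraries were used as deposited by the authors, with GRCh38, STAR and featureCounts named, per the submitters' processing notes, without role or setting (DESeq2 1.44.0 is named too). The deposited FPKM values of the authors were used only in limma alternatives, because the length they imply was the genomic span (within 5% of it for 100% of 11666 genes with at least 100 counts). Levels between genes, planned on FPKM, are therefore CPM per kb of GENCODE 29 exon union. Identifiers without a gene name (20403 of 62703) took 0.349% to 0.713% of counts and stayed out.

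Each RNA kind was fitted in edgeR 4.0.16 (R 4.3.3) with TMM, filterByExpr, and terms for genotype and batch (18745, 18732 and 18212 genes). The nuclear and cytoplasmic libraries were fitted together for the control ratio (16246 genes) and the ratio change (19310 genes). Scripts were tested on simulated data. The labels give the batch that pairs knockout and control libraries, and same-batch deviations from group means correlated at -0.237 to 0.0327 over 11637 genes. Alternatives used DESeq2 1.42.0, limma 3.58.1, other scalings and filters, no batch term, and each library left out; a lone remaining library is then assumed to vary like the other groups. Python 3.11.15 was used for sequences and lists. Named genes are the 8 lncRNAs, the targeted genes, up to 3 genes per list and knockout called in all RNA kinds (else in cytoplasmic RNA) with the largest cytoplasmic change, nearest neighbours, and the 2 genes most alike. MIR4435-2HG, KCNQ1, CDKN1C, ELAVL1 and PUM2 were read as partners or near-copies of the 8. MATR3 was left out for having 2 identifiers, and some genes that the rule names are not reported here. The 8 lncRNAs and all lists were chosen with earlier results of these data known.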

Additional observations from a re-analysis of the deposited data

Results flagged for a closer look

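In nuclear control RNA, CYTOR was 1.84 normalized CPM in replicate 4, far from the other 3 libraries. KCNQ1OT1 in cytoplasmic RNA of the IGF2BP3 knockout was lowest in replicate 2, at 7.25. Its control log2 nuclear to cytoplasmic ratio was lowest in batch 1, at 1.96. Of 40 groups tested for an outlying library these 3 stood out, and chance gives about 1 in 20.

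In batches 3 and 4 of the IGF2BP3 knockout the nuclear and cytoplasmic changes had opposite signs for NORAD (ratio change -0.43) and OIP5-AS1 (-0.51). Both differences were tested and called (adjusted p = 0.00466 and 0.000496, edgeR), and both calls ended without nuclear IGF2BP3 knockout replicate 1 (-0.27 and -0.40). The nuclear change of NORAD was itself not called (-0.20, adjusted p = 0.0906, edgeR). Cytoplasmic OIP5-AS1 in batch 5, at 84.9 and 94.7 normalized CPM, lay below the control range of 100.6 to 107.3, on the same side as the nuclear change.

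The cytoplasmic batch 5 libraries of the IGF2BP3 knockout, which do not enter the change, were above every control library for 6 lncRNAs. For DANCR (136 and 143) and OIP5-AS1 (84.9 and 94.7) both were below every control library. The share of all genes separated in this way was not computed, so nothing is read from the number. In the main fit 64.7% of all genes were called in cytoplasmic RNA of this knockout. The lower of the 2 libraries was 63.4 normalized CPM for MALAT1, 199.7 for NEAT1, 8.41 for KCNQ1OT1, 301 for NORAD, 231 for TUG1 and 2.17 for CYTOR. With no control in batch 5, batch and genotype cannot be told apart there.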

How the results depend on the processing

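Of 87 calls on the 8 lncRNAs, 86 held under RLE and upper-quartile scaling, 84 without the filter and 84 with a robust spread, 77 under DESeq2, 64 of 67 within the batches of the knockout, 53 and 57 of 80 under limma on log2(FPKM + 1) and log2(FPKM + 0.1), 68 without the batch term, and 60 without any 1 library. Counts as low as 15 (CYTOR) and 49 (KCNQ1OT1) per library limit the precision of these lncRNAs.

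With no replicate block (the batch term left out), 2 calls changed sign: cytoplasmic OIP5-AS1 in the IGF2BP3 knockout (-0.0112) and cytoplasmic NEAT1 between the IGF2BP3 and IGF2BP2 knockouts (-0.39). Uncalled values that changed sign with no block were TUG1 (-0.0259 total, -0.15 nuclear) and nuclear OIP5-AS1 (-0.0405) for IGF2BP1, cytoplasmic KCNQ1OT1 (-0.31) and NORAD (-0.0893) and the DANCR ratio (-0.0506) for IGF2BP2, total OIP5-AS1 (-0.0657) for IGF2BP3, and cytoplasmic TUG1 (-0.0478) between knockouts. Counts moved with no block to 1 lncRNA (nuclear IGF2BP1), 4 lncRNAs (cytoplasmic, IGF2BP3 against IGF2BP2), 2 lncRNAs (IGF2BP3 ratio), 4189 genes (cytoplasmic IGF2BP1) and 1668 and 639 genes (IGF2BP2 and IGF2BP3 ratio, from 3370 and 2101). With knockout batch numbers crossed where the correlation was under -0.1, an alternative added after seeing the data, 4, 7 and 6 lncRNAs in total, 2 in nuclear (IGF2BP1) and 6 in cytoplasmic RNA (IGF2BP2) were called. Batch 5 alone, also added later, turned cytoplasmic OIP5-AS1 to -0.18. The other causes were not tested.

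Without the filter, nuclear TUG1 (-0.00759) and cytoplasmic NORAD (-0.00565) for IGF2BP2 changed sign, uncalled, and 1 lncRNA was called in nuclear IGF2BP1. The IGF2BP2 ratios of NORAD and DANCR, near 0, turned under RLE (-0.00326 and -0.000946), upper-quartile scaling (-0.0313 and -0.0289) and DESeq2 (-0.00312 and -0.00174); RLE called 1 lncRNA in nuclear IGF2BP1. DESeq2 called 0 lncRNAs and 104 genes in the IGF2BP1 ratio, 1068 and 668 genes in the others, and 3075 genes in nuclear IGF2BP1. Limma called 1 lncRNA in total and nuclear IGF2BP1, with 2128 and 1559 genes at + 1 and 2302 and 1709 at + 0.1, and 0 lncRNAs in each ratio (unadjusted 3, 3 and 4 at + 1, and 3, 3 and 5 at + 0.1), with 0, 1 and 8 genes at + 1 and 1, 0 and 0 at + 0.1. Within the batches of the knockout, 1 lncRNA and 2354 genes were called in total and 1 lncRNA in nuclear IGF2BP1, and 7 lncRNAs in nuclear IGF2BP3. Upper-quartile scaling moved the median of all genes to 0.12 and 0.15 in total and 0.16 and 0.19 in cytoplasmic RNA (IGF2BP2 and IGF2BP3), and the higher and lower calls from 4371 and 4439 to 5267 and 3438, from 4399 and 4392 to 5659 and 3115, from 5635 and 6051 to 7325 and 4569, and from 5732 and 6051 to 7705 and 4227; for total IGF2BP1 from 1999 and 2529 to 2539 and 2055, and for the IGF2BP2 ratio from 1495 and 1875 to 924 and 2018. RLE moved the IGF2BP1 ratio from 455 and 339 to 274 and 481.

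With 1 library left out at a time, results whose sign or count moved ranged as follows. NORAD ranged from -0.47 to 0.26 (total IGF2BP1), from -0.0197 to 0.0160 (cytoplasmic IGF2BP2), from -0.0600 to 0.0852 (ratio IGF2BP2). TUG1 ranged from -0.0869 to 0.15 (total IGF2BP1), from -0.00167 to 0.11 (total IGF2BP3 against IGF2BP2), from -0.11 to 0.18 (nuclear IGF2BP1), from -0.17 to 0.20 (nuclear IGF2BP2), from -0.0970 to 0.24 (nuclear IGF2BP3), from -0.14 to 0.25 (nuclear IGF2BP3 against IGF2BP2). The count of lncRNAs called ranged from 2 to 6 (total IGF2BP1), from 1 to 5 (nuclear IGF2BP1), from 3 to 7 (nuclear IGF2BP3), from 0 to 4 (ratio IGF2BP1), from 2 to 6 (ratio IGF2BP3). The count of genes called ranged from 3056 to 7388 (total IGF2BP1), from 4656 to 11185 (total IGF2BP2), from 5065 to 11328 (total IGF2BP3), from 3847 to 10834 (total IGF2BP3 against IGF2BP2), from 5931 to 10273 (nuclear IGF2BP2), from 6237 to 10476 (nuclear IGF2BP3), from 0 to 1003 (ratio IGF2BP1), from 938 to 3790 (ratio IGF2BP2), from 380 to 2396 (ratio IGF2BP3). MALAT1 ranged from -0.58 to 0.45 (nuclear IGF2BP1), from -1.19 to 0.22 (ratio IGF2BP1). NEAT1 ranged from -0.35 to 0.15 (nuclear IGF2BP1). KCNQ1OT1 ranged from -0.40 to 0.53 (nuclear IGF2BP1), from -0.13 to 0.54 (cytoplasmic IGF2BP2), from -0.56 to 0.0405 (ratio IGF2BP1). CYTOR ranged from -0.35 to 0.15 (control nuclear against cytoplasmic), from -0.30 to 0.92 (ratio IGF2BP1), from -0.96 to 0.44 (ratio IGF2BP2), from -1.16 to 0.23 (ratio IGF2BP3). DANCR ranged from -0.0826 to 0.11 (ratio IGF2BP2).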
